A study of Mus musculus with 3 samples.

Results

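The genes described here are 10 genes of macrophages and dendritic cells, leaving out those of major histocompatibility complex class II, measured in sorted CD4+ CD8+ double-positive (DP) thymocytes of the mouse. They are Csf1r, Itgam, Itgax, Lyz2, Fcer1g, Tyrobp, C1qa, Mpeg1, Cst3 and Siglech. They were chosen by name as a measure of thymic phagocytes carried through the sort, and the rule uses no measured value, although earlier results of these data were known when it was made. Each is represented by the probe set that the platform's annotation gives to that gene alone. All 10 had exactly 1 such probe set, and they are 10 of the 19938 genes with one.

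The data are 3 microarrays of 1 group. Each array holds total RNA of primary CD4+ CD8+ DP thymocytes from a cohort of litter mates of wild-type (WT) C57BL/6 mice aged 5 to 6 weeks, with no treatment named. The cells were separated on magnetic beads for CD8 and then CD4, and the number of mice in a cohort and the purity reached are not in the labels used here. With 1 group there is no contrast between conditions, so the measurements below are whether each gene exceeded background and how far it varied between the 3 cohorts.

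Thymic macrophages clear the many thymocytes that die during selection, and thymic dendritic cells present self antigen to the survivors. Both cell types bind developing T cells closely, so they can travel with a bead sort. Macrophages depend on the receptor Csf1r, take up cells through complement and Fc receptors, and digest them in lysosomes. Dendritic cells carry Itgax, and plasmacytoid dendritic cells carry Siglech. In tissue, these genes are used as markers because T cells make little or none of most of their products. Cst3 is different, since its product cystatin C is secreted by most cell types.

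Only Cst3 was above background in the DP arrays. The background limit of an array was set by 94 genes that mark liver, muscle, brain and other organs: it is the value that 95% of them stay under, and was 7.285, 7.274 and 7.2695 (log2 expression value) on arrays 1, 2 and 3. By this rule 1 of the 10 genes exceeded background on all 3 arrays and the other 9 on no array. Over all named genes 42.7% exceeded it on all 3 arrays, and of the organ-specific genes 4.26% did. The share of 42.7% also stands beside the counts for other gene lists below. In bulk RNA, fewer cells of a type and less RNA per cell cannot be told apart. With a lower limit, the median of the organ-specific genes plus 1 log2 unit, Cst3 was again the only one of the 10 above it on all arrays, against 47.4% of all named genes and 8.51% of the organ-specific genes. Itgam and Fcer1g exceeded this lower limit on 1 array, and Tyrobp and C1qa on 2. A value under a limit bounds the level and does not show that the RNA was absent. Signal also depends on the affinity of the probes, so values of different genes are not read as relative RNA levels. Counts of organ-specific genes with a higher value, given below, only place a signal within the background.

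**Figure D1:**
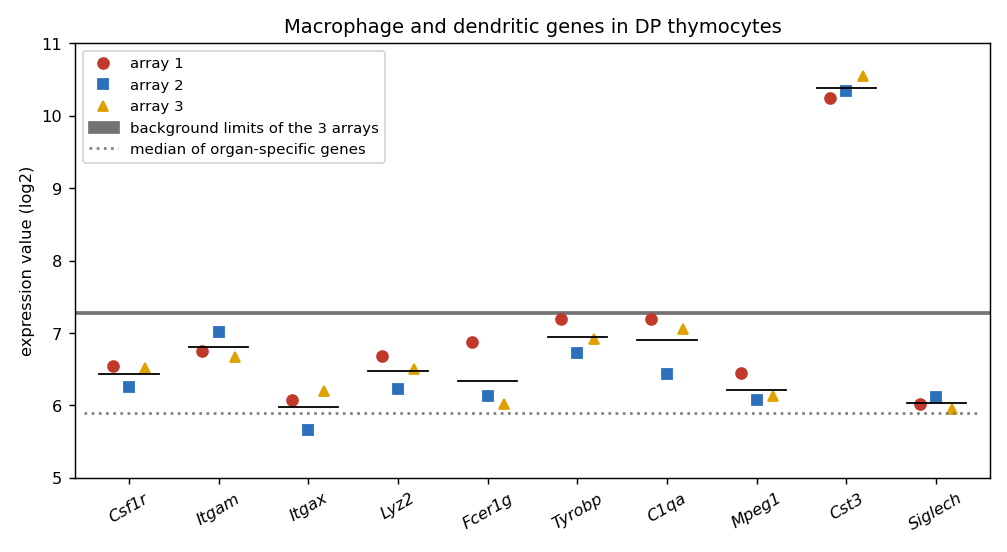
Log2 expression value (y axis) of each of the 10 genes (x axis) on array 1 (circles), array 2 (squares) and array 3 (triangles). The short black lines are means of the 3 arrays, the grey band spans the background limits of the arrays, and the dotted line is the mean over arrays of the median of the organ-specific genes. Cst3 lies above the band at 10.24 to 10.55, and every point of the other 9 genes lies below it.

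Promoter sequences are shown for 3 of the genes, because Cst3 stood apart from the rest in signal and Lyz2 and Itgax carry the ETS-type motif described next. They come from RefSeq (GRCm38.p6), run 5′ to 3′ from 250 bases before to 50 bases after the annotated start, and are on the minus, minus and plus strand for Cst3 (chr2:148875463-148875762), Lyz2 (chr10:117282223-117282522) and Itgax (chr7:128129300-128129599). Capitals mark GGGCGG, the GC box, and GGAAGT, a core bound by ETS factors, on either strand.
Cst3: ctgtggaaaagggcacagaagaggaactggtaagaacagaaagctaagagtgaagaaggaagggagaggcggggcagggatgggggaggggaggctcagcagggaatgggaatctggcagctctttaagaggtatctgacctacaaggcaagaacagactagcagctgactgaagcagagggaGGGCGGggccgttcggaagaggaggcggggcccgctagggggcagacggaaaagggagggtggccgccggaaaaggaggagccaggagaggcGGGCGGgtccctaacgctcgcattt
Lyz2: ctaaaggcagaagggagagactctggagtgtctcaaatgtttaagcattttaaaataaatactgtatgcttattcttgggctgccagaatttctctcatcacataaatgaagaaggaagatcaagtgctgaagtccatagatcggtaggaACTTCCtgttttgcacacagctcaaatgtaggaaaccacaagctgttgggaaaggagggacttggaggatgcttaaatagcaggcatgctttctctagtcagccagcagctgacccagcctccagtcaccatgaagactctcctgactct
Itgax: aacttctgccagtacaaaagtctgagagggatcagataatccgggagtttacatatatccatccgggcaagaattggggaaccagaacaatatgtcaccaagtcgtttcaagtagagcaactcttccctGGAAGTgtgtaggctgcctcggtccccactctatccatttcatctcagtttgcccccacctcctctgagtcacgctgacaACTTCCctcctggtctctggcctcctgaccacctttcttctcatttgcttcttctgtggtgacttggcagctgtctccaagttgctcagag

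The table of promoters matched 7 of the 10 genes, namely Itgam, Itgax, Lyz2, Fcer1g, Mpeg1, Cst3 and Siglech. The Cst3 window held 13 CpG dinucleotides and a GC content of 60.3%. The other 6 windows held between 1 (Lyz2) and 7 (Fcer1g) CpG dinucleotides, with a GC content of 39.0% (Mpeg1) to 55.7% (Fcer1g). The median over 32851 promoter windows was 7 CpG dinucleotides, so the Cst3 window was above it and none of the other 6 was. GGGCGG was found in 2 of the 7 windows, those of Cst3 (2 matches) and Itgam (1 match), against 35.7% of all windows. GGAAGT was found in 3 of the 7, those of Itgax (2 matches), Lyz2 (1 match) and Siglech (1 match), against 23.8% of all windows. The longer form GAGGAAGT, which contains GGAAGT and resembles the site preferred by the myeloid ETS factor PU.1, was found in 0 of the 7 windows and in 3.2% of all windows. Both strands were searched, and a match describes the letters of the window only.

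Csf1r encodes the receptor for the growth factors CSF1 and IL-34, on which most tissue macrophages depend. Its values were 6.54, 6.25 and 6.51 on arrays 1, 2 and 3 (mean 6.43 ± 0.16, SD, n = 3 here and below). All 3 lay under the limit, by 0.745, 1.02 and 0.76, and array 2 was the lowest. Of the 94 organ-specific genes, 20, 34 and 20 had a higher value than Csf1r on arrays 1, 2 and 3. The receptor's ligands and related growth factor receptors were also mostly at background. Of these 7 genes 0 exceeded the limit on all 3 arrays, and Il34 (7.35, 7.67 and 7.18) and Csf2ra (7.44, 7.44 and 7.23) did so on arrays 1 and 2. Csf1 had 5.71, 5.72 and 5.79, and Csf3r, the granulocyte growth factor receptor, had 6.09, 5.96 and 5.85.

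Itgam and Itgax encode the integrin alpha chains CD11b and CD11c, which pair with the beta-2 chain Itgb2 on myeloid cells. Itgam had 6.75, 7.02 and 6.67 (mean 6.81 ± 0.18), under the limit by 0.535, 0.254 and 0.60. It was highest on array 2, where Csf1r was lowest. Itgax had 6.07, 5.66 and 6.20 (mean 5.98 ± 0.28), and its array 2 value was the lowest. On array 2, 58 of the 94 organ-specific genes had a higher value than Itgax, against 41 and 37 on arrays 1 and 3.

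The shared beta-2 chain was high in the same RNA, with Itgb2 at 10.44, 10.74 and 10.73. Itgal, which encodes the alpha chain of LFA-1 that T cells pair with Itgb2, had 10.98, 11.12 and 11.04. Of the 6 genes in this integrin list, 5 exceeded the limit on all arrays, Itgb2, Itgal, Fermt3, Icam1 and Icam2. Itgad, a further alpha chain next to Itgax on chromosome 7, had 6.67, 6.94 and 6.91 and did not.

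A further 3 probe sets carry the name of Itgam together with that of Rpl35, a ribosomal protein gene, and were left out by the rule of 1 symbol. Their means were 11.40 ± 0.18, 11.25 ± 0.20 and 11.38 ± 0.19. They were highest on array 1 and lowest on array 2, whereas the probe set of Itgam alone was highest on array 2. Which of the named genes gives this signal was not tested, and no Itgam level is taken from it.

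Lyz2, Mpeg1 and Cst3 encode secreted or vesicular proteins of phagocytes. Lyz2, the lysozyme of macrophages and neutrophils, had 6.68, 6.23 and 6.50 (mean 6.47 ± 0.23), under the limit by 0.605, 1.04 and 0.77. Mpeg1, the pore-forming protein perforin-2, had 6.45, 6.07 and 6.13 (mean 6.22 ± 0.20). Both genes were highest on array 1 and lowest on array 2. Lyz1, the near-identical neighbour of Lyz2 on chromosome 10, has its own probe set, with 6.37, 6.42 and 6.52. Lyz1 and Lyz2 can share hybridising RNA, so their 2 values are not fully separate measurements, and both lay below the limit.

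Cst3, a secreted inhibitor of cysteine cathepsins, had 10.24, 10.35 and 10.55 (mean 10.38 ± 0.16). It exceeded the limit by 2.96, 3.08 and 3.28 on arrays 1, 2 and 3, and 0 of the 94 organ-specific genes had a higher value on any array. Its order over arrays differed from that of Lyz2 and Mpeg1, with array 1 the lowest and array 3 the highest. It also exceeded the 99th percentile of the organ-specific genes, which was 8.04, 7.95 and 7.95 and which 34.4% of all named genes exceeded on all arrays.

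The enzymes that Cst3 inhibits and other lysosomal genes were detected in part. Of 12 lysosome and cystatin genes, 7 exceeded the limit on all arrays, against 42.7% of all named genes. They were Cstb, Ctss, Ctsb, Ctsd, Ctsl, Ctsz and Lamp1. Ctss, a cathepsin of antigen-presenting cells, had 8.46, 8.0 and 8.71, lowest on array 2 like most of the 10 genes. Ctsd had 11.24, 11.69 and 11.64 and Ctsl had 10.25, 10.67 and 10.68, both lowest on array 1. Cd68, a macrophage lysosomal protein, had 7.45, 6.99 and 7.27 and exceeded the limit on arrays 1 and 3. Its margin on array 3 was smaller than 1 rounding step of the deposited values.

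Fcer1g and Tyrobp encode small adaptors with an immunoreceptor tyrosine-based activation motif, through which Fc receptors, TREM proteins and many natural killer (NK) cell receptors signal. Fcer1g had 6.87, 6.13 and 6.02 (mean 6.34 ± 0.46), high on array 1 and low on both others. Tyrobp had 7.19, 6.73 and 6.92 (mean 6.95 ± 0.23), again highest on array 1, where it lay 0.095 under the limit. On array 1 only 6 of the 94 organ-specific genes had a higher value than Tyrobp, against 18 and 12 on arrays 2 and 3.

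Of 13 measured receptors, adaptors and kinases that work with these adaptors, 2 exceeded the limit on all arrays. They were Syk, the kinase that binds the adaptors, with 8.31, 8.10 and 8.06, and Cd247, the zeta chain of the T cell receptor complex, with 10.47, 10.40 and 10.37. None of the Fc and TREM receptors measured did so on any array. Fcgr3, a phagocyte Fc receptor, had 5.71, 5.33 and 5.52, Fcgr1 had 5.64, 5.65 and 5.70, and Trem2 had 6.94, 6.81 and 6.81. Hcst, the adaptor gene next to Tyrobp on chromosome 7, had 7.21, 6.95 and 7.00.

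NK cells also use Tyrobp and Fcer1g. Of 9 measured NK genes, Gzma, a granule protease, exceeded the limit on all arrays (8.61, 8.08 and 8.18) and Prf1, named after its values were seen, on arrays 2 and 3. The mean deviation of the 9 from the 3-array mean was 0.21, -0.15 and -0.06 on arrays 1, 2 and 3. Of the 9, 7 were highest on array 1, against 34.5% of all named genes. The receptor genes Ncr1 (5.11, 4.78 and 4.71) and Klrk1 (4.59, 4.30 and 4.32), named after their values were seen, were below the limit on every array. The part of NK cells in the Tyrobp and Fcer1g values was not tested.

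C1qa encodes a chain of C1q, the complement protein that thymic macrophages secrete and that tags dying cells. It had 7.20, 6.44 and 7.06 (mean 6.90 ± 0.40), so arrays 1 and 3 were close together and array 2 was lower. It lay under the limit by 0.085, 0.834 and 0.21. The genes of the other chains adjoin C1qa on chromosome 4. C1qb had 6.48, 6.24 and 6.54, with the same array lowest, and C1qc had 6.81, 6.42 and 6.10, with array 3 lowest. Of 6 measured complement genes 0 exceeded the limit on any array.

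Siglech encodes an inhibitory lectin of plasmacytoid dendritic cells that signals through Tyrobp. It had 6.02, 6.12 and 5.95 (mean 6.03 ± 0.09), and its arrays lay within 0.17 of each other. Of the 94 organ-specific genes, 42, 39 and 43 had a higher value, close to the middle of that list. Of 11 other genes that plasmacytoid cells express, 6 exceeded the limit on all arrays, against 42.7% of all named genes. They were Bst2, Ly6d, Ccr9, Tcf4, Irf7 and Pacsin1. Ccr9, a chemokine receptor that DP thymocytes also carry, had 12.13, 12.33 and 12.24. Cox6a2 exceeded the limit on arrays 2 and 3 (7.20, 7.36 and 7.36). The other 4, Spib, Tlr7, Tlr9 and Cd300c, were below it on every array, with means of 6.42, 5.62, 6.80 and 6.68. Cox6a2 and these 4 were named after their values were seen. The part of plasmacytoid cells in the values of this list was not tested.

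Broader lists of myeloid genes lay at background as the 9 genes did. Of 47 measured macrophage, dendritic and granulocyte genes that are not among the 10, 0 exceeded the limit on all arrays and 1, Batf3, did so on array 2 alone (7.09, 7.31 and 7.13; named after its values were seen). Adgre1, which encodes the macrophage antigen F4/80, had 5.38, 5.25 and 5.14. Zbtb46, a factor of conventional dendritic cells, had 6.36, 6.42 and 6.42, and S100a8, an abundant neutrophil gene, had 4.37, 5.08 and 4.74. These 3 were named after their values were seen. Spi1, the gene of PU.1, had 5.67, 5.85 and 5.55, and was also named after its values were seen. Of 11 measured myeloid transcription factors, 4 exceeded the limit on all arrays, against 42.7% of all named genes. They were Cebpb, Id2, Klf4 and Gfi1. Irf8, named after its values were seen, exceeded the limit on array 1 alone. Id2 and Gfi1 also act in lymphoid cells. Whether the signal of these factors came from myeloid or lymphoid cells was not tested.

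**Figure D2:**
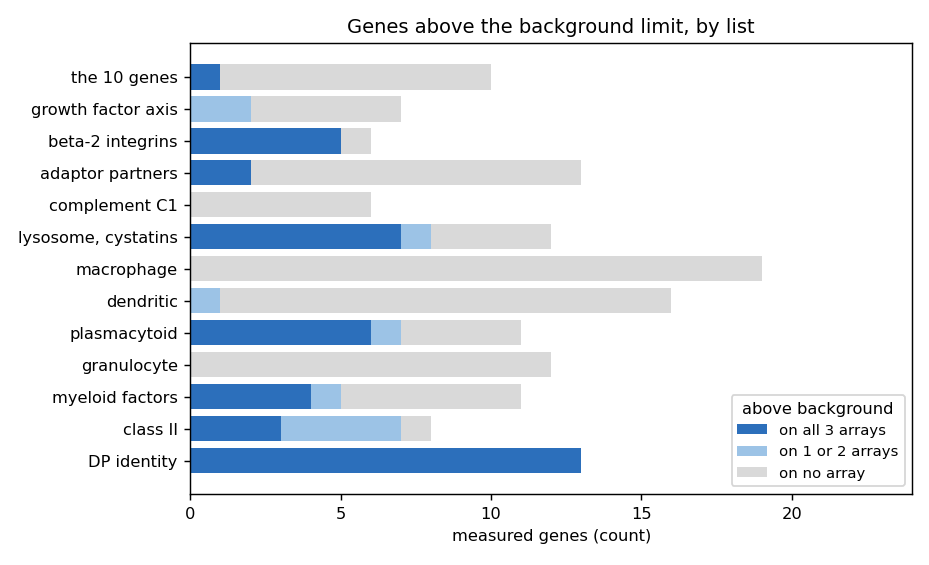
Number of measured genes (x axis) in each list (y axis) that exceeded the background limit on all 3 arrays (dark), on 1 or 2 arrays (light) or on no array (grey). All 13 DP identity genes and 1 of the 10 genes exceeded it on all arrays, and 0 of the 19 macrophage, 16 dendritic and 12 granulocyte genes did.

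Markers of the labelled cell type were above background, which does not measure the purity of the sort. All 13 measured DP identity genes exceeded the limit on every array, against 42.7% of all named genes. Among them were Cd4 (11.59, 11.88 and 11.76), Cd8a (13.03, 13.27 and 13.26), Cd8b1 (11.76, 12.05 and 12.08) and Rag1 (13.39, 13.56 and 13.57). Rag2, named after its values were seen, had 8.69, 9.51 and 9.54. Array 1 stood apart from the other arrays. Pearson's r across 28939 probe sets was 0.993 for arrays 1 and 2 and for arrays 1 and 3 and 0.996 for arrays 2 and 3, where probe sets are not independent replicates. Xist, the RNA of the silenced X chromosome, had 11.65, 5.40 and 5.68, and Kdm5d, on the Y chromosome, had 4.46, 9.10 and 8.97, so the sex of the mice differed between cohorts. The stimulus-induced genes Fos (9.39, 7.86 and 8.27) and Jun (11.01, 9.65 and 9.56) were also highest on array 1. These 4 were named after their values were seen.

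The SD over the 3 cohorts ran from 0.09 (Siglech) to 0.46 (Fcer1g), and none of the 10 genes passed a test of it. In a limma test of each probe set's variance against a robust prior that follows the level, 6 of 28939 probe sets passed a Benjamini-Hochberg adjusted p of 0.05 (0.0207%) and 0 of the 10 genes did, with adjusted p of 0.988 for 9 of them and 0.992 for Siglech. At an unadjusted p under 0.05 there were 2 of the 10, against 4.66% of all probe sets. In this limma test the unadjusted p was 0.0132 for Fcer1g and 0.019 for C1qa. The SD of Fcer1g, 0.46, exceeded that of 99.5% of the 1000 probe sets nearest to it in level, and the SD of C1qa, 0.40, exceeded 98.7%. Siglech, with an SD of 0.09, exceeded 27%. The other 7 lay between 71.3% (Csf1r) and 92.7% (Itgax). In the same limma test Xist and Kdm5d passed (adjusted p of 0.00871 and 0.0209), and Fos and Jun did not (0.436 and 0.416). Not passing it therefore does not show that a gene was stable between cohorts.

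The value furthest from the other 2 was that of array 1 for Fcer1g and of array 2 for C1qa, all below the limit. Leaving out that array narrows the spread by construction. Without array 1 the unadjusted p of Fcer1g was 0.561, and without array 2 that of C1qa was 0.491 (limma). Without array 1, Itgax and C1qa were the 2 of the 10 genes under 0.05, against 5.53% of all probe sets. The adjusted limma p of the 10 genes was 0.463 or higher under every setting run.

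**Figure D3:**
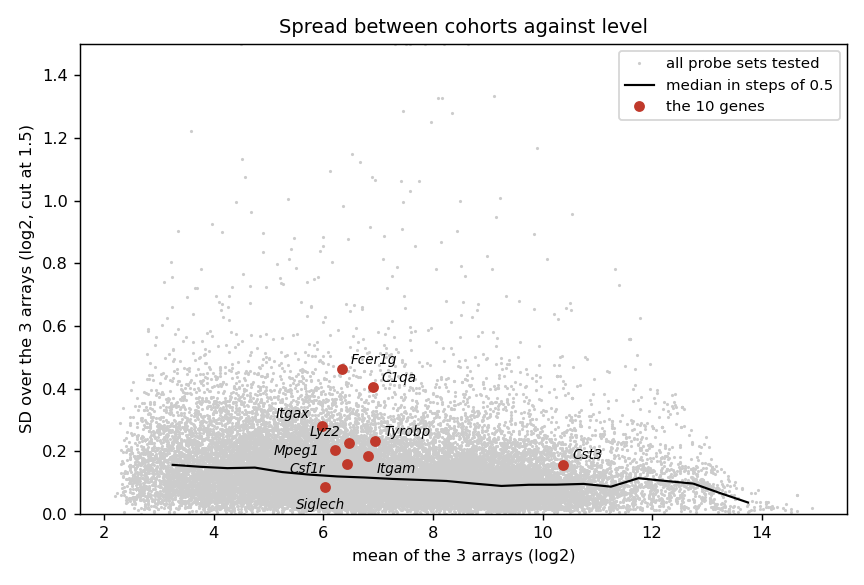
SD over the 3 arrays (y axis, log2, cut at 1.5) against the mean of the 3 arrays (x axis, log2) for the 28939 probe sets tested (grey) and the 10 genes (red). The black line is the median SD in steps of 0.5 of the mean. Fcer1g (0.46) and C1qa (0.40) lie highest among the 10 and Siglech (0.09) lies below the line.

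The genes did not share 1 pattern over the arrays, although most were lowest on array 2. Lyz2, Fcer1g, Tyrobp, C1qa, Mpeg1 and Csf1r were highest on array 1, 6 of 10, against 34.5% of all named genes. Csf1r, Itgax, Lyz2, Tyrobp, C1qa and Mpeg1 were lowest on array 2, also 6 of 10, against 27.8% of all named genes. Among genes above background on no array, these shares were 30.8% and 27.4%. The mean deviation of the 10 genes from the 3-array mean was 0.15, -0.15 and 0.00 on arrays 1, 2 and 3, where the mean over all named genes was -0.0041 to 0.0056. Single genes varied around these means with an SD over genes of 0.20, 0.19 and 0.17. The mean deviation itself was not tested.

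Array 1 minus array 2 shows the pattern gene by gene. The difference was positive for 7 of the 10 genes, against 45.4% of all named genes. These were Csf1r, Itgax, Lyz2, Fcer1g, Tyrobp, C1qa and Mpeg1, with differences in the deposited values of 0.29 to 0.76. It was negative for Itgam, Cst3 and Siglech, at -0.27, -0.11 and -0.10. This pair of arrays was taken up after the values were seen. The median was 0.395 for the 10 genes and -0.02 for all named genes. Differences of at least 0.25, a size chosen after the values were seen, were found for 7 of the 9 genes below background and for 12.5% of all genes above background on no array. Both values of each such difference lie below the limit, so they have no reliable order or size and are not read as fold changes of RNA.

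The broader myeloid lists differed among themselves in this respect. The median of array 1 minus array 2 was 0.02 over the 47 macrophage, dendritic and granulocyte genes. Of the 47, 18 were highest on array 1 and 16 lowest on array 2, against 34.5% and 27.8% of all named genes. The median difference was 0.105 for the dendritic list and 0.02 for the macrophage list. Single genes of these lists went either way, all below the limit. Aif1 (5.48, 4.74 and 5.70) and Ly86 (6.59, 5.82 and 5.98) were higher on array 1 than on array 2. Mertk (4.97, 5.58 and 5.43) and S100a8 (4.37, 5.08 and 4.74) were lower on array 1. These genes were named after their values were seen. The 11 myeloid transcription factors had a mean deviation of 0.17, -0.10 and -0.07 on arrays 1, 2 and 3. Of the 11, 7 were highest on array 1, against 34.5% of all named genes. In the limma variance test 5 of the 11 had an unadjusted p under 0.05, against 4.66% of all probe sets. So did 4 of 10 thymic epithelial, 3 of 9 NK, 2 of 19 macrophage and 0 of 9 stromal and endothelial genes. After adjustment 0 of the 11 passed. Among them Cebpb had 8.11, 7.44 and 7.57 and Klf4 had 8.21, 7.54 and 7.49. The difference between the 10 genes and these lists was not tested.

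The class II genes present antigen on dendritic cells, macrophages, B cells and thymic epithelium. Of the 8, 7 were highest on array 1 and 6 lowest on array 2, against 34.5% and 27.8% of all named genes. The size of the class II differences was not tested against that of the 10 genes, most of which lie under the limit. Of 8 measured, 3 exceeded the limit on all arrays, against 42.7% of all named genes. They were H2-Ab1 (9.26, 7.91 and 8.50), H2-Eb1 (8.82, 7.77 and 8.40) and H2-Oa (8.56, 8.28 and 8.31). Cd74 (8.83, 7.27 and 8.05) and H2-Aa (8.44, 6.75 and 7.81), named after their values were seen, exceeded it on arrays 1 and 3. Their mean deviation was 0.44, -0.40 and -0.04 on arrays 1, 2 and 3, and the median of array 1 minus array 2 was 0.77. Ciita (6.12, 6.27 and 5.95), H2-Ob (7.38, 6.96 and 6.75) and H2-DMa (7.71, 7.22 and 7.47) were named after their values were seen. Ciita and H2-Ob each had an array order of its own. H2-Ab1, H2-Eb1, Cd74, H2-Aa, H2-Oa and H2-DMa had the order of arrays 1, 3 and 2 from high to low. Lyz2, Tyrobp, C1qa, Mpeg1 and Csf1r also had this order, below background, where the order is not reliable. Itgam, Itgax, Fcer1g, Cst3 and Siglech had other orders. Genes outside both sets, such as Id2 (8.71, 8.05 and 8.27), had it too. The share of all genes with this order was not computed, and a link between the 2 sets was not tested. None of the 8 passed the limma variance test (lowest adjusted p = 0.436). At an unadjusted p under 0.05 there were 5, against 4.66% of all probe sets, and genes of a list are not independent replicates.

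Markers of other cells that carry class II were given the same measurements. Of 8 B cell genes 1, Cd79b, exceeded the limit on all arrays (8.73, 8.79 and 8.83), and the mean deviation of that list was 0.09, -0.08 and -0.02. Of 10 thymic epithelial genes 2, Ccl25 and Ly75, did so, with a mean deviation of -0.17, 0.04 and 0.13, lowest on array 1. Of 9 stromal and endothelial genes 2, Pecam1 and Col1a1, did so, with a mean deviation of -0.01, 0.00 and 0.01. The DP identity genes deviated by -0.14, 0.07 and 0.07. The part of these cells, of the sex of the cohorts and of the stimulus-induced genes in the values of the 10 genes was not tested.

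**Figure D4:**
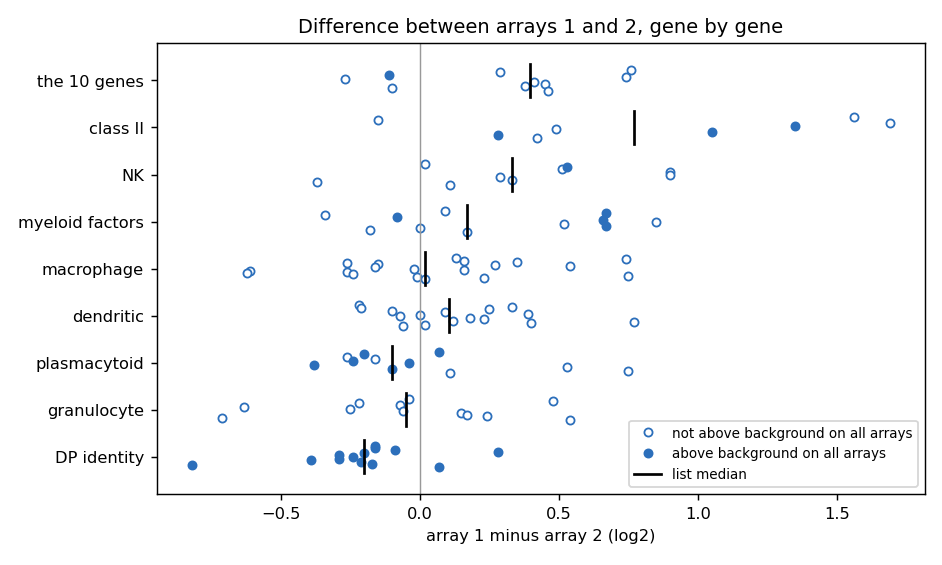
Array 1 minus array 2 (x axis, log2) for each gene of 9 lists (y axis). Filled points exceeded background on all arrays, open points did not, and black bars are list medians. The median is 0.395 for the 10 genes, 0.77 for class II, 0.02 for the macrophage list and -0.20 for DP identity.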

How the data were processed

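The authors deposited log2 expression values of 3 arrays with 2 decimals. That they are log2 follows from their range, 1.6 to 14.94. The R package affy is named, without a version, per the submitters' processing notes, and the sources used here do not give its settings. The arrays have nearly equal quartiles, so a global difference in RNA content would not be visible. Per the labels' protocols, cells were fixed in formaldehyde before the sort and RNA was extracted with TRIzol; whether the RNA samples were fixed is not said. Cohorts are labelled biological replicates.

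Of 35556 probe sets, 21789 have 1 gene symbol in the platform annotation, 1621 several and 12146 none. The 6617 probe sets numbered below the first one with a symbol were taken as controls, which left 28939. A RefSeq table (GRCm38.p6) held the gene IDs of 21698 of the named ones and changed 0 symbols. The brightest probe set by 3-array mean represented a gene. Background was the 95th percentile of 94 measured organ-specific genes (of 104 listed). The spread was tested with limma 3.58.1 in R 4.3.3 (intercept-only fit, F test against a robust, mean-dependent prior, Benjamini-Hochberg over all 28939) and its script was tested on simulated data. Other steps used Python 3.11.15 and pandas 2.3.3.

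The 10 genes and the 16 companion lists (169 of 179 genes measured) were chosen with earlier results of these data known. The text names all 10 genes. Of each companion list it names genes above background on all arrays where 8 or fewer, otherwise the first 4 measured, genes past the variance test, and genes of the 5 lists of molecular partners of the 10 (growth factor axis, integrins, adaptors, complement, lysosome); for other names the text says so. The alternatives tried were other background limits, priors and filters, the mean over probe sets, leaving out each array, and median centring or quantile normalization. The number of arrays limits the precision.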

Additional observations from a re-analysis of the deposited data

How the results depend on the processing

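Cst3 was the only one of the 10 genes above background on all arrays under every alternative run (both normalizations, each left-out array and both other limits). The mean over probe sets is the same value by construction, since each gene has 1. With the median plus 1 as the limit (6.85, 6.93 and 6.91), 4, 2 and 3 of the 10 exceeded it on arrays 1, 2 and 3. Beside Cst3 these were Fcer1g, Tyrobp and C1qa on array 1, Itgam on array 2, and Tyrobp and C1qa on array 3. The share of all named genes was computed only for all 3 arrays together and was 47.4%. The limma variance test called 0 of the 10 under every prior and left-out array. At an unadjusted p under 0.05 there were 1 or 2, against 3.5% to 5.53% of all probe sets. Among brighter probe sets the test could be run for Cst3 alone. The mean deviation of the 10 genes was 0.08 to 0.16 on array 1 and -0.20 to -0.08 on array 2; on array 3 it took either sign, from -0.08 to 0.08. With all 3 arrays the count highest on array 1 was 6 under both normalizations, against 34.5% of all named genes in the deposited values. It was 8 without array 2 and 7 without array 3, where highest means above only 1 other array. Those 2 counts are therefore not comparable with the 6. Of all named genes 45.4% were higher on array 1 than on array 2. In settings chosen after the data were seen, the count of the 47 broader myeloid genes above background was 3 with the median plus 1 and 0 otherwise, and the class II count, 3, was 1 with the 99th percentile, 5 with the median plus 1 and 6 without array 2. No paired analysis was possible because the labels give 1 group.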
